A study of Mus musculus with 6 samples.

Results

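The 60 genes described here encode proteins that carry a cell through mitosis, from the kinase that starts it to the ring that divides the cell. They were picked by gene symbol for that role, with earlier results of these data known. All 60 were found among the 46983 genes of the deposited expression table. Aortic valves of wild type C57BL/6J mice were compared at postnatal day 2 (PND2), when the leaflets grow, and at 4 months, the adult age. Each age had 3 RNA-seq libraries, and each library held the valves of 5 to 6 mice of that age, pooled, with no treatment or transgene. The question was how much of the mitotic programme of the newborn valve was left in the adult valve, and in which of its parts. The valve is a mixture of interstitial, endothelial and other cells, and in whole tissue a smaller number of dividing cells and less RNA in each of them cannot be told apart.

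Mitosis is started by cyclin B and the kinase Cdk1, and is completed by the ordered destruction of cyclins and of the proteins that hold sister chromatids together. Between these steps chromosomes are condensed, attached to spindle microtubules at the kinetochore, checked for attachment, pulled apart and packed into the daughter cells. Most of these genes are transcribed late in the cell cycle and are nearly silent in resting cells, so their RNA is widely used as a mark of dividing cells. In the growing heart valve, interstitial and endothelial cells divide after birth, whereas adult valve cells rarely do.

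Values are RPKM, reads on a gene divided by its exonic length in kilobases and by the depth of the library. The length covers all exons annotated for a gene, untranslated parts included, and the order of genes by level can differ when only coding exons are used. Library totals ran from 23810507 to 38994657 reads, and 5.44 to 9.60% of reads on genes came from mitochondrial ones. All 60 genes passed the filter of at least 0.1 RPKM in 3 libraries, as did 25903 genes in all. None of the 60 had 3 reads or fewer in any library. The thinnest was Cdc25c, with 4, 10 and 9 reads in the libraries of 4 months. Reads summed over genes came to 2.31 to 2.36 times the totals. Whether the totals count reads or pairs, and whether a read could count at more than 1 gene, is not given in the sources used here. Log2 fold changes, with their standard errors (SE), are differences of log2(RPKM + 0.1), 4 months minus PND2, and at low RPKM the change is understated. They were tested with limma over all 25903 genes, and a gene was called at an adjusted p under 0.05.

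At 4 months 54 of the 60 genes had fallen, 2 had risen (Pttg1 and Cdc25b) and 4 were not called (Anln, Cenpa, Espl1 and Kif18a). Among all genes tested the limma test called 21.1% lower and 14.7% higher. All 54 also fell more than 2-fold, against 8.47% of all genes tested. The median log2 fold change of the 60 genes was -2.50, and that of all genes tested was -0.14. The lowest value was -4.07 for Cdk1 and the highest 1.10 for Pttg1. For the genes that fell, limma adjusted p ran from 0.000125 (Cdk1) to 0.0373 (Kif14). No overlap between the libraries of the 2 ages was seen for 58 genes, 55 of them lower and 3 higher at 4 months, where 29.9% and 20% of all genes tested showed this. With each library scaled to a common median, which raised the median of all genes by 0.12, calls that were higher made up 52.7% of all calls in place of 41.1%, and 53 of the 60 genes were called lower and 2 higher.

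The level that remained, the mean RPKM at 4 months as a percent of the PND2 mean, had a median of 15% over the 60 genes. It lay under 10% in 15 genes, between 10 and 20% in 24, between 20 and 50% in 15 and at 50% or more in 6. At PND2 the means ran from 0.454 RPKM (Kif18a) to 25.2 RPKM (Pttg1), with a median of 5.06 RPKM. At 4 months they ran from 0.144 RPKM (Cdc25c) to 54.4 RPKM (Pttg1), with a median of 0.781 RPKM. A mean under 1 RPKM was found for 2 genes at PND2 and for 36 at 4 months. Across the 60 genes, which share libraries, the level at PND2 and the percent that remained had a Spearman's rho of 0.127.

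**Figure D1:**
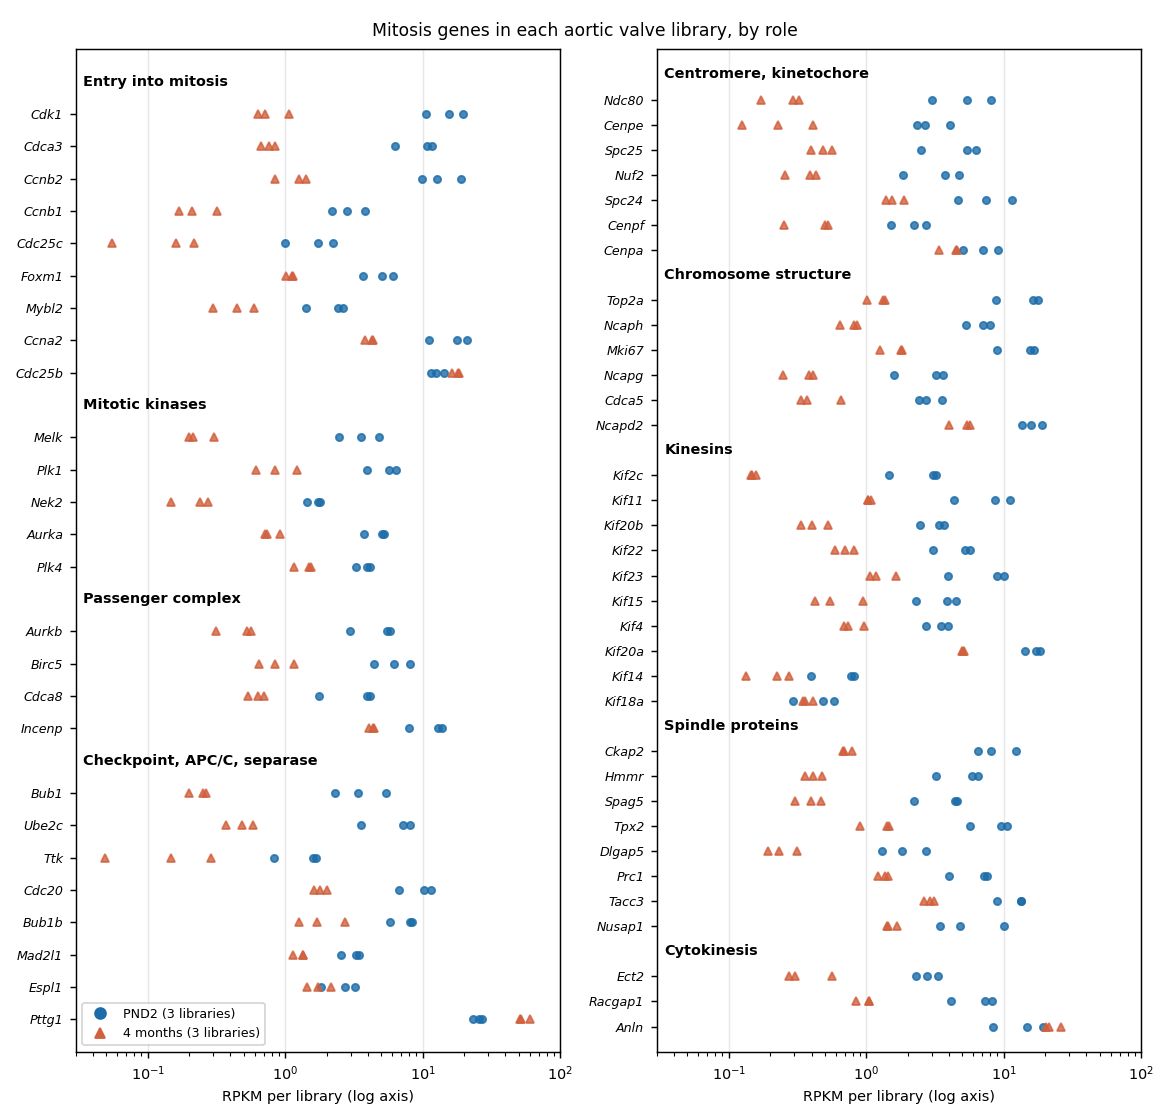
RPKM of each of the 60 mitosis genes in the 3 libraries of PND2 (circles) and the 3 of 4 months (triangles), on a log axis and grouped by role. For 55 genes every library of 4 months lies below every library of PND2, for Pttg1, Cdc25b and Anln every one lies above, and for Espl1 and Kif18a the ages overlap.

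Promoters of this kind of gene are known for a pair of short elements, the cell cycle genes homology region (CHR), which is bound by MuvB complexes, and the CCAAT box, which is bound by NF-Y. Here the CHR was searched as TTTGAA or TTTAAA and the CCAAT box as CCAAT, on both strands, in RefSeq windows of 250 bases before to 50 bases after the start site (GRCm38.p6, the patched release of the same assembly as mm10). The following 110-base stretches, 5′ to 3′ on the strand of the gene and ending before both the RefSeq start and the first base of the deposited gene, show the elements beside genes that fell, rose or were not called. Capitals mark matches to either element on either strand.
Cdk1, fell, chr10:69352939-69353048, minus strand: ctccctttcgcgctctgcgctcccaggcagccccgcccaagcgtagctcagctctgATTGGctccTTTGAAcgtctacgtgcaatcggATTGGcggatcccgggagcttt
Plk1, fell, chr7:122159325-122159434, plus strand: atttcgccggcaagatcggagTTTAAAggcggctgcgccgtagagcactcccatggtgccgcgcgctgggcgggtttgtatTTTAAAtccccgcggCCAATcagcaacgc
Top2a, fell, chr11:99024190-99024299, minus strand: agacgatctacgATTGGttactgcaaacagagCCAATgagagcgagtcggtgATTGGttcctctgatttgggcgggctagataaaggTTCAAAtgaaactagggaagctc
Cdc20, fell, chr4:118437353-118437462, minus strand: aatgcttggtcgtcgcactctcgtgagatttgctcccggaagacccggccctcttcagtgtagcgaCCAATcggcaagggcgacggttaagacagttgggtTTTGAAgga
Ndc80, fell, chr17:71526858-71526967, minus strand: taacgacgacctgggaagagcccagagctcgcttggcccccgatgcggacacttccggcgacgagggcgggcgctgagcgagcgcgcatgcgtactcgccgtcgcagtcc
Cdc25b, rose, chr2:131186838-131186947, plus strand: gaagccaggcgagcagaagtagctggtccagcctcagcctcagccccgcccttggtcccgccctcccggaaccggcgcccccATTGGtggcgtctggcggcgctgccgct
Espl1, not called, chr15:102296183-102296292, plus strand: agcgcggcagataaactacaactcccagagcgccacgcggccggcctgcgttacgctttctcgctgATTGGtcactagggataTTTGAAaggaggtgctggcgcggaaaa
Kif18a, not called, chr2:109280628-109280737, plus strand: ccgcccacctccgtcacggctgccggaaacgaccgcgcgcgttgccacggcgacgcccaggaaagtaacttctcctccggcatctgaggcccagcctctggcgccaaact

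In these stretches Top2a held 1 CHR and 3 CCAAT boxes, Cdk1 1 and 2, Plk1 2 and 1, and Cdc20 and Espl1 1 of each. Cdc25b held a single CCAAT box, and the stretches of Ndc80 and Kif18a held neither. The window of Ndc80 does hold 2 CHR matches, which lie after the start site, 23 and 30 bases from it, and it is counted below as holding a CHR. In the whole windows, RefSeq promoters were matched for 51 of the 60 genes. A CHR was present in 39 of them (76.5%), against 30.6% of the 27025 symbols with a promoter. A CCAAT box was present in 34 (66.7%) against 41.1% of all, at least 2 boxes in 43.1% against 13.3%, and both elements in 60.8% against 12.2%. For E2F sites, searched as TTTGGCGC, TTTCCCGC or TTTCGCGC on both strands, the shares were 9.80% and 2.12%. In 38 promoters of DNA replication genes a CHR was present in 28.9%, a CCAAT box in 60.5% and an E2F match in 44.7%. In 49 promoters of the further mitosis genes described below the shares were 61.2, 75.5 and 10.2%. A high share with a CCAAT box was thus not particular to the 60 genes. Of the 6 genes that did not fall, 3 held a CHR and 3 a CCAAT box. The median level that remained was 14.1% for the 39 genes with a CHR and 22.5% for the 12 without, which is a description with no test.

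Genes that bring the cell into mitosis had a median of 8.65% remaining over 9 genes, of which 8 fell and 1 rose. Cdk1, the kinase at the centre of mitotic entry (chromosome 10, 69336635 to 69352938, mm10), had 19.7, 15.6 and 10.6 RPKM in the PND2 libraries and 0.637, 0.707 and 1.06 RPKM at 4 months. Every PND2 library was far above every adult one, and 5.25% of the level remained. The log2 fold change was -4.07 (SE 0.29, limma adjusted p = 0.000125). The partners of Cdk1 followed, with 7.94% of Ccnb1 and 8.44% of Ccnb2, the B-type cyclins, left at 4 months. Cdca3, a substrate adaptor that helps to release Cdk1 from inhibition, kept 7.89%, and Cdc25c, a phosphatase that activates Cdk1, kept 8.65%. The transcription factors Foxm1 and Mybl2, which switch on late cell cycle genes, kept 22.1% and 20.8%.

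Cdc25b, the phosphatase that starts Cdk1 activation, went the other way (chromosome 2, 131186949 to 131198497). Its values were 12.5, 14.3 and 11.6 RPKM at PND2 and 18.1, 16.3 and 18.5 RPKM at 4 months. All adult libraries were above all PND2 libraries, but the gap was small. The log2 fold change of 0.46 (SE 0.12) passed the limma test with an adjusted p of 0.0222. This call was lost without PND2 replicate 3 (adjusted p = 0.0808), without 4 months replicate 1 (0.0643) or replicate 3 (0.0776), and in coding exons (0.120), all with limma. Cdc25b also overlaps Spef1 on the other strand, at 7.59 ± 0.797 RPKM in the newborn and 9.28 ± 1.16 in the adult valve (SD, n = 3). In the exons of Cdc25b that overlap no other gene, the adult mean was 136% of the PND2 mean, against 138% over the whole gene. The log2 difference in these exons was 0.44.

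Ccna2, or cyclin A2, the cyclin of S phase and early mitosis, had 21.1, 17.7 and 11.1 RPKM at PND2 and 4.35, 4.31 and 3.78 RPKM at 4 months. This left 24.9% (log2 fold change -1.93, limma adjusted p = 0.00108), more than for the other cyclins. Its exons overlap those of Exosc9 on the opposite strand, an exosome subunit at 15.2 ± 0.730 RPKM in the newborn and 10.6 ± 0.751 in the adult valve (SD, n = 3). Whether reads were counted by strand is not stated in the sources used here. In the 6 coding exons of Ccna2 that no other gene overlaps, the values were 32.6, 31.7 and 13.1 RPKM at PND2 and 2.23, 3.17 and 1.34 RPKM at 4 months. In these exons 8.70% remained, against 6.63% of Ccnb1 and 7.91% of Ccnb2 in their own clear coding exons.

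The same difference between whole gene and clear coding exons was found for a pair of kinesins. Kif20a, a kinesin of the central spindle needed for cytokinesis, overlaps Cdc23, a subunit of the anaphase-promoting complex. Over the whole gene it had 18.3, 17.1 and 14.4 RPKM at PND2 and 4.99, 5.18 and 5.10 RPKM at 4 months, so that 30.7% remained (log2 fold change -1.68, limma adjusted p = 0.000194). In its 14 clear coding exons the values were 17.2, 14.6 and 11.3 RPKM at PND2 and 0.694, 1.47 and 1.83 RPKM at 4 months, and 9.25% remained. Kif4, a chromosome-bound kinesin, overlaps Pdzd11, a gene at 30.8 ± 1.92 RPKM in the newborn and 25.1 ± 1.40 in the adult valve (SD, n = 3). Its whole-gene values of 3.53, 3.92 and 2.73 RPKM at PND2 and 0.733, 0.685 and 0.959 RPKM at 4 months left 23.4% (log2 fold change -1.96, limma adjusted p = 0.00125). Clear coding exons gave 3.49, 4.16 and 2.32 RPKM at PND2 and 0.167, 0.112 and 0.420 RPKM at 4 months, with 7.01% remaining. In all, 18 of the 60 genes share exonic bases with another annotated gene. For Ccna2, Kif20a and Kif4 leaving out shared exons moved the fold by over 1.5 times. Other genes also differed in clear coding exons. Prc1 kept 11.0% there against 21.4% over the whole gene, and Cdca8 10.4% against 19.0%. Cdca5, which overlaps no other gene, kept 7.91% against 15.7%.

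**Figure D2:**
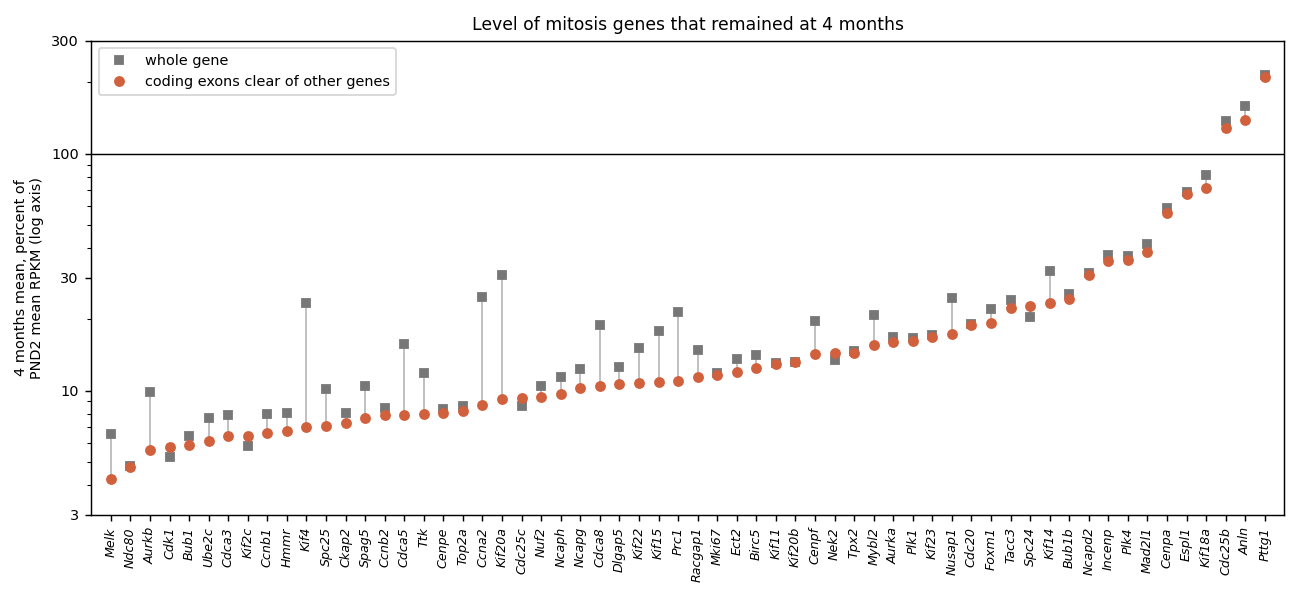
Mean RPKM at 4 months as a percent of the PND2 mean for each of the 60 genes, on a log axis, from whole genes (squares) and from coding exons clear of other genes (circles), joined by lines and ordered by the coding exons. The median is 15% for whole genes and 11.2% for coding exons, and the longest lines belong to Kif4, Kif20a and Ccna2, with Pttg1, Anln and Cdc25b above 100%.

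Over all 60 genes, coding exons clear of other genes left a median of 11.2%, with 24 genes under 10%, 22 between 10 and 20%, 8 between 20 and 50% and 6 at 50% or more. In the limma fit of these exons over 13465 genes, 54 of the 60 were called lower, against 25.5% of genes, and 1 was called higher (Pttg1), against 15.9%. The same 54 genes fell in both fits, and the direction of all 60 was the same, while Cdc25b was called only in whole genes. Medians of single roles given in the text are from whole genes. In coding exons they were 8.70% for entry into mitosis, 9.41% for kinetochore genes, 9.96% for chromosome structure and 10.8% for spindle proteins. They were 11.4% for the passenger complex, 11.9% for kinesins, 12.0% for cytokinesis, 16.1% for further kinases and 21.7% for checkpoint and separase genes.

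All 5 further mitotic kinases fell, with a median of 16.7% remaining. Melk, a kinase abundant in proliferating cells, fell most among them, from 3.58, 4.85 and 2.45 RPKM at PND2 to 0.198, 0.212 and 0.302 RPKM at 4 months. That left 6.55% (log2 fold change -3.43, limma adjusted p = 0.000381). Plk1, which acts at centrosomes, kinetochores and the central spindle, had 5.73, 6.41 and 3.92 RPKM at PND2. It had 0.609, 0.840 and 1.23 RPKM at 4 months, 16.7% of the PND2 mean (log2 fold change -2.48, limma adjusted p = 0.00118). Plk4, the kinase that sets centriole duplication, fell least, from 3.92, 4.13 and 3.25 RPKM to 1.5, 1.53 and 1.16 RPKM, and 37.1% remained (log2 fold change -1.37, limma adjusted p = 0.00283). Aurka and Nek2, kinases of the spindle poles and the centrosome, kept 16.9% and 13.4%.

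The 4 members of the chromosomal passenger complex, which corrects faulty attachments and then marks the plane of division, all fell but to unequal levels. Its kinase Aurkb had 5.47, 5.83 and 2.96 RPKM at PND2 and 0.527, 0.314 and 0.563 RPKM at 4 months, 9.85% of the PND2 mean (log2 fold change -3.07, limma adjusted p = 0.000755). Incenp, its scaffold, had 12.9, 13.7 and 7.95 RPKM at PND2 and 4.46, 4.07 and 4.36 RPKM at 4 months, so that 37.3% remained (log2 fold change -1.36, limma adjusted p = 0.00329). The ages did not overlap for either gene. Birc5 (survivin) and Cdca8 (borealin) kept 14.1% and 19.0%.

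Genes of the spindle checkpoint, of the activation of the anaphase-promoting complex and of separase ranged from 6.45% of the PND2 mean to 216%. Of 8 genes, 6 fell, 1 rose and 1 was not called, with a median of 22.4% remaining. Bub1, a checkpoint kinase at the kinetochore, fell from 5.38, 3.39 and 2.30 RPKM at PND2 to 0.264, 0.251 and 0.198 RPKM at 4 months, 6.45% of its mean (log2 fold change -3.41, limma adjusted p = 0.000523). Ube2c, the ubiquitin-conjugating enzyme of the anaphase-promoting complex, kept 7.66%, and Cdc20, its activator, kept 19.2%. The checkpoint kinase Ttk kept 11.9%, Bub1b 25.5% and Mad2l1, a checkpoint protein that binds Cdc20, 41.5%.

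Pttg1, or securin, the inhibitor of separase that is destroyed at anaphase, was the highest of the 60 genes at both ages (chromosome 11, 43420250 to 43426251). It had 26.9, 23.2 and 25.6 RPKM at PND2 and 60.4, 50.8 and 52.1 RPKM at 4 months. Every adult library was far above every newborn one, with a mean at 216% of the PND2 mean. The log2 fold change of 1.10 (SE 0.11, limma adjusted p = 0.000426) kept its direction and its call in each alternative fit with a test, with an adjusted p of at most 0.0217, reached with a per-gene unequal-variance test in place of limma. Each of its 3 coding exons was higher in every adult library than in every PND2 library. Its rise stood beside the fall of Cdc20 and Ube2c, which act at the same step.

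Espl1, or separase, the protease that cuts cohesin at anaphase, was not called (chromosome 15, 102296293 to 102324356). Its values were 2.72, 3.23 and 1.81 RPKM at PND2 and 2.15, 1.44 and 1.73 RPKM at 4 months, and the ages overlapped. The log2 fold change was -0.50 (SE 0.28, limma adjusted p = 0.209), with 68.6% remaining. Its coding exons were not alike, in a pattern seen after the values were known and therefore given with no test. Over exons 1 to 15, counted from the 5′ end, the libraries of PND2 had 1.92, 1.90 and 0.829 RPKM and those of 4 months 0.139, 0.285 and 0.268 RPKM, so that 14.9% remained. Over exons 16 to 28 they had 3.67, 4.64 and 2.93 RPKM at PND2 and 4.24, 2.67 and 3.21 RPKM at 4 months, and 90.1% remained. All 15 exons of the first stretch were lower at 4 months, with 16 to 24 reads per adult library, whereas 7 of the 13 of the second were lower and 6 higher, with 189 to 472 reads. The cut between the stretches was placed by these same values, so the low share left in the first is a description only. In coding exons the median of the 60 genes was 11.2%. Most adult reads of Espl1 lay in the second stretch. Among the 55 genes with at least 4 clear coding exons, the level that remained in the later exons, from the middle of the list on, over that in the earlier ones had a median of 1.13, and for Espl1 it was 5.94.

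Among centromere and kinetochore genes 6 of 7 fell, with a median of 10.5% remaining. Ndc80, the microtubule-binding subunit of the outer kinetochore (chromosome 17, 71496100 to 71526857), had the smallest remainder of all 60 genes over whole genes, whereas in coding exons Melk kept less (4.22% against 4.78%). Ndc80 fell from 8.04, 5.37 and 3.03 RPKM at PND2 to 0.292, 0.324 and 0.173 RPKM at 4 months, 4.80% of its mean with 24, 17 and 11 reads left (log2 fold change -3.86, SE 0.39, limma adjusted p = 0.000517). The partners that form a complex with Ndc80 also fell, with 10.5% of Nuf2, 10.2% of Spc25 and 20.4% of Spc24 left. Spc24 had 11.6, 7.48 and 4.64 RPKM at PND2 and 1.55, 1.40 and 1.90 RPKM at 4 months (log2 fold change -2.14, limma adjusted p = 0.00282). The kinetochore motor Cenpe kept 8.35% and Cenpf, a large protein of the kinetochore corona, 19.7%.

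Cenpa, the histone H3 variant that marks the centromere and persists on chromatin in resting cells, fell short of the threshold (chromosome 5, 30666777 to 30674830). It had 9.14, 7.06 and 5.05 RPKM at PND2 and 4.61, 4.48 and 3.41 RPKM at 4 months. The adult libraries were below the PND2 ones with no overlap, and 58.8% remained. The log2 fold change was -0.72 (SE 0.24, limma adjusted p = 0.0544), and without PND2 replicate 3 it was -0.94 with an adjusted p of 0.0253 in limma. All 3 of its clear coding exons were lower at 4 months.

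The 6 genes of chromosome structure all fell, with a median of 12.1% remaining. Top2a, the topoisomerase that untangles sister chromatids, fell from 17.8, 16.2 and 8.75 RPKM at PND2 to 1.36, 1.32 and 1.01 RPKM at 4 months, 8.64% of its mean (log2 fold change -3.38, limma adjusted p = 0.000274). Mki67, which coats mitotic chromosomes, kept 11.8%, and Cdca5 (sororin), which protects cohesion, 15.7%. The condensin I subunits differed, with 11.4% of Ncaph and 12.3% of Ncapg left but 31.3% of Ncapd2. Ncapd2 had 15.8, 19.0 and 13.7 RPKM at PND2 and 5.72, 5.42 and 4.00 RPKM at 4 months (log2 fold change -1.66, limma adjusted p = 0.000784). Condensin also depends on the subunits Smc2 and Smc4, which condensin I and II share, and these kept 29.9% and 41.5%.

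Of the 10 mitotic kinesins 9 fell, with a median of 17.5% remaining over whole genes and 11.9% in coding exons. Kif2c, a microtubule depolymerase of the centromere, fell most, from 3.08, 3.20 and 1.46 RPKM to 0.147, 0.144 and 0.158 RPKM, 5.81% of its mean (log2 fold change -3.35, limma adjusted p = 0.000650). Kif11, Kif15, Kif20b, Kif22 and Kif23, which separate the poles, hold the spindle bipolar, carry chromosome arms or build the midzone, kept 13.1 to 17.9%. Kif14, a kinesin of cytokinesis, was low at both ages (0.661 and 0.211 RPKM) and lay nearest to the threshold (log2 fold change -1.27, limma adjusted p = 0.0373). It lost its call without PND2 replicate 1 (0.101) or replicate 2 (0.112) and without 4 months replicate 1 (0.0521), replicate 2 (0.0789) or replicate 3 (0.111), again with limma.

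Kif18a, which shortens kinetochore microtubules to align chromosomes, was not called (chromosome 2, 109280738 to 109341747). Its values were 0.584, 0.487 and 0.292 RPKM at PND2 and 0.357, 0.410 and 0.344 RPKM at 4 months. The ages overlapped, with 84 to 224 reads per library, and 81.5% remained. The log2 fold change of -0.20 missed the threshold (SE 0.33, limma adjusted p = 0.678). Of its 14 clear coding exons 11 were lower and 3 higher at 4 months.

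All 8 spindle proteins fell, with a median of 13.6% remaining. Ckap2, a microtubule-stabilising protein of the spindle, fell from 12.3, 8.13 and 6.48 RPKM at PND2 to 0.793, 0.678 and 0.691 RPKM at 4 months, 8.02% of its mean (log2 fold change -3.42, limma adjusted p = 0.000191). Tacc3, which crosslinks kinetochore fibres, had the highest PND2 values, in whole genes and in coding exons, with 13.4, 13.3 and 8.88 RPKM, and 3.09, 2.92 and 2.62 RPKM at 4 months, 24.2% of its mean (log2 fold change -1.99, limma adjusted p = 0.000468). Nusap1, a microtubule bundler around chromosomes, had 10.1, 4.83 and 3.42 RPKM at PND2 and 1.68, 1.43 and 1.43 RPKM at 4 months. It kept 24.7% (log2 fold change -1.80, limma adjusted p = 0.00964), and its PND2 libraries were far apart. The spindle assembly factor Tpx2 kept 14.7%, Hmmr 8.05%, Spag5 10.5%, Dlgap5 12.6% and Prc1, which bundles the midzone, 21.4%.

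Of the 3 cytokinesis genes Ect2 and Racgap1, which together switch on RhoA at the cell equator, fell to 13.6 and 14.9% of the PND2 mean. Ect2 had 3.32, 2.77 and 2.30 RPKM at PND2 and 0.303, 0.561 and 0.276 RPKM at 4 months (log2 fold change -2.63, limma adjusted p = 0.00102). Anln, or anillin, a scaffold of the contractile ring that also binds actin and septins outside mitosis, stood at 159% of the PND2 mean (chromosome 9, 22331214 to 22389206). Its values were 19.4, 14.7 and 8.42 RPKM at PND2 and 26.0, 21.4 and 20.3 RPKM at 4 months. Every adult library was above every PND2 library, yet the difference missed the threshold (log2 fold change 0.74, SE 0.29, limma adjusted p = 0.0832). Without PND2 replicate 1 the log2 fold change was 1.01 and the limma adjusted p 0.0247.

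Anln too was uneven along its coding exons, as seen after the values were known and so with no test. Over exons 1 to 7 it had 18.3, 15.8 and 9.53 RPKM at PND2 and 11.7, 8.07 and 7.36 RPKM at 4 months, 62.1% of the PND2 mean, and all 7 exons were lower. Over exons 8 to 22 it had 26.5, 22.6 and 11.1 RPKM at PND2 and 43.1, 34.7 and 34.6 RPKM at 4 months, 187% of the PND2 mean, and all 15 exons were higher. Uneven ratios of later to earlier exons were also found in other genes, but on fewer adult reads. The ratio of later to earlier exons used above for Espl1 was 8.15 for Kif2c, 4.48 for Cdc25c, 3.72 for Ube2c, 2.98 for Mybl2 and 1.92 for Anln, and Cdca5 had no reads in its earlier exons at 4 months. Over the whole gene, the libraries of 4 months held 24, 15 and 20 reads for Kif2c and 4, 10 and 9 for Cdc25c. They held 36, 30 and 44 for Ube2c, 103, 49 and 40 for Mybl2 and 52, 17 and 23 for Cdca5. Anln had 5269, 2758 and 3187, so the ratios of the other genes rest on far fewer reads. Which transcripts carry the uneven exons was not tested.

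**Figure D3:**
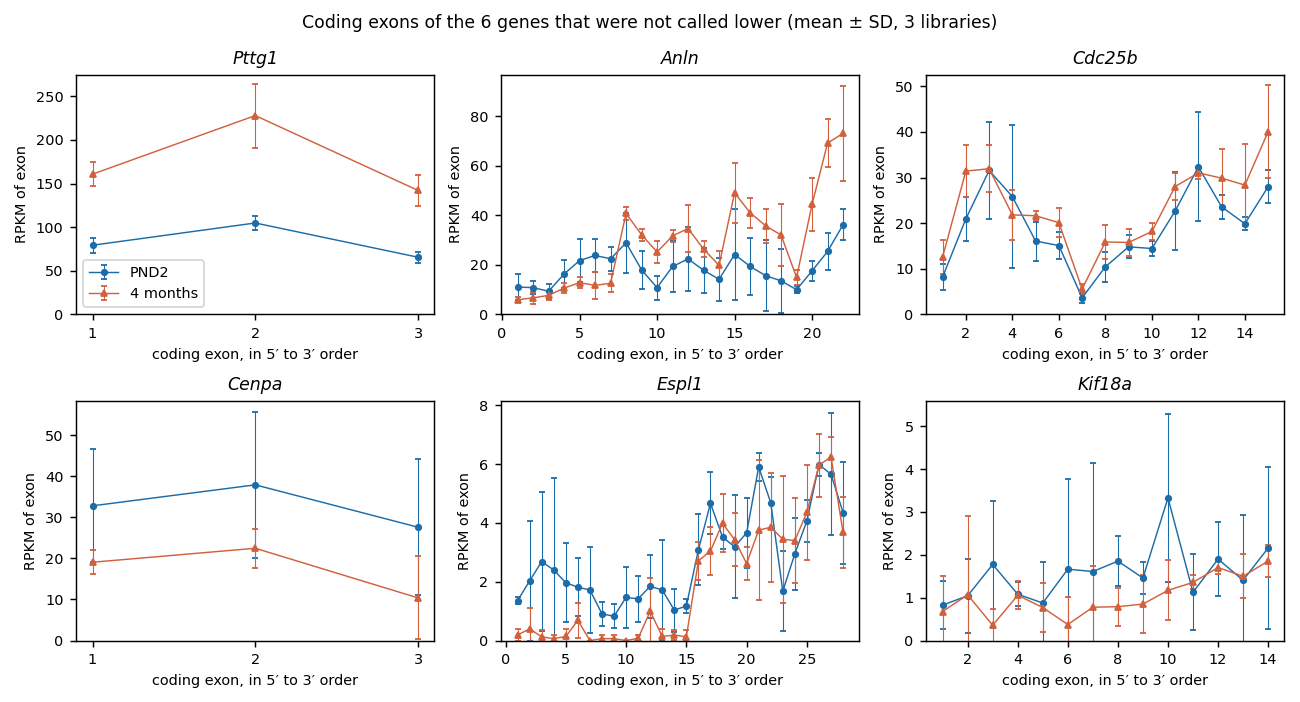
Mean RPKM of each coding exon, in 5′ to 3′ order, of the 6 genes that did not fall, at PND2 (circles) and at 4 months (triangles), with bars of 1 SD over the 3 libraries of an age. The ages part at exon 8 of Anln and come together at exon 16 of Espl1, while all 3 exons of Pttg1 are higher at 4 months.

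PND2 replicate 3 was the lowest of the 3 PND2 libraries for 59 of the 60 genes (98.3%), Pttg1 being the exception, while replicate 1 was the highest for 45 and replicate 2 for 15. As a percent of each gene's PND2 mean the medians were 122 for replicate 1, 110 for replicate 2 and 66.7 for replicate 3. Among all genes tested replicate 3 was lowest for 22.8%. In coding exons it was lowest for 58 of the 60 genes, and after scaling each library to a common median for 59. For the 68 further mitosis genes described below, replicate 3 was lowest for 55 (80.9%), with medians of 113, 106 and 77.6% of the PND2 mean. DNA replication genes did not follow this order, since replicate 3 was lowest for 17 of 49 of them (34.7%) and their medians were 90.2, 111 and 99.7% of the PND2 mean. The members share these libraries, so this is a description of 3 pools and was given no test.

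**Figure D4:**
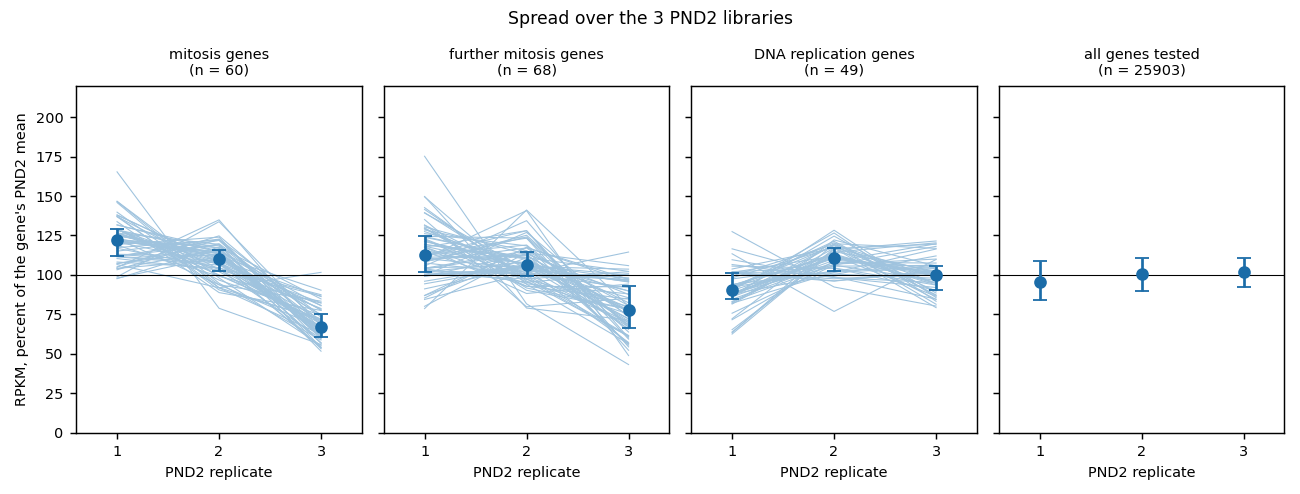
RPKM in each PND2 library as a percent of the gene's PND2 mean, for the 60 mitosis genes, 68 further mitosis genes, 49 DNA replication genes and all 25903 genes tested, with points at the median and bars over the middle 50% of genes, and a thin line for each gene in the first 3 panels. The median of the mitosis genes drops to 66.7% in replicate 3 and that of the further mitosis genes to 77.6%. That of the DNA replication genes is 99.7% there.

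Without PND2 replicate 3, 55 of the 60 genes were called lower by limma and the median log2 fold change was -2.76. Summed RPKM of 9 erythroid markers, which are known from blood cells, was also lowest in that library (2599, 2517 and 1865 RPKM over the PND2 replicates). That of 8 cardiomyocyte markers was highest in it (12624, 13732 and 15767 RPKM). So were the sums of endothelial (531, 404 and 557 RPKM), smooth muscle (7178, 8220 and 8268 RPKM) and macrophage markers (282, 234 and 292 RPKM). Sums of interstitial, neutrophil, lymphocyte and adipocyte markers were neither highest nor lowest in it. The part of these cells in the order of the PND2 libraries was not tested.

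The tissue itself also differed between the ages. Summed over 9 markers of valve interstitial cells, the matrix-making cells of the leaflet, RPKM was 6514 to 7167 at PND2 and 8041 to 10150 at 4 months, with 2 markers higher, 4 lower and 3 not called. All 7 endothelial markers fell (404 to 557 RPKM in sum at PND2, 226 to 247 at 4 months). Of 8 cardiomyocyte markers 4 fell (12624 to 15767 against 5076 to 7932 RPKM), and of 6 neutrophil markers tested 5 fell (28.0 to 34.1 against 3.22 to 7.08 RPKM over all 8, with Ngp at 0 in every adult library). None of the 6 erythroid markers tested was called (1865 to 2599 against 750 to 2158 RPKM over all 9, with Epb42 at 0 in every adult library). All 6 smooth muscle markers rose (7178 to 8268 against 16547 to 27656 RPKM), as did 7 of 8 macrophage markers (234 to 292 against 492 to 636 RPKM), 5 of 6 adipocyte markers (87.4 to 174 against 266 to 579 RPKM, with Cidec and Lep at 0 in every PND2 library) and 3 of 7 lymphocyte markers tested (1.5 to 2.53 against 4.27 to 7.15 RPKM, with Cd3e at 0 in every PND2 library). The part of these cells in the fall of the mitosis genes was not tested.

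A second list of 68 mitosis genes, written by role but with earlier results of these data known, had a median nearer to 0. Of these, 55 fell and 13 were not called, with a median log2 fold change of -1.71 and a median of 25.1% remaining. Esco2, the acetyltransferase that fixes sister cohesion, fell most (log2 fold change -3.57, limma adjusted p = 0.000818). Genes not called included Bub3, a checkpoint protein with 88.2% remaining, Mis12, a kinetochore subunit with 91.3%, Zw10, with 101%, and Numa1, a spindle pole protein with 111%. Zw10 also acts in membrane traffic and Numa1 in interphase nuclei. Cenpq, a gene of the same list named for the centromere, was not called either, with 97.2% remaining. Whether roles outside mitosis bear on these values was not tested.

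Further lists, of protein complexes that are also used beyond mitosis, had higher median levels remaining. The part of such use in these levels was not tested. Of 15 genes of the anaphase-promoting complex and its interphase activator Fzr1, 6 fell and 9 were not called, with a median of 74.6% remaining, although the mitotic partners of the complex, Cdc20 and Ube2c, kept 19.2 and 7.66%. Of 10 cohesin genes 4 fell and 6 were not called, with a median of 80.1%. Condensin II and the subunits it shares with condensin I kept a median of 53.3% over 5 genes, of which 4 fell, and Ncaph2 was not called (94.7%). The MuvB core and the pocket proteins, 13 genes here, assemble the repressor and activator of mitosis genes. Of these, Rbl1, Lin9 and Tfdp1 fell (log2 fold changes -1.36, -1.23 and -0.78), Rbl2 and Lin52 rose (0.77 and 0.86) and 8 were not called. Among all genes tested 21.1% were called lower and 14.7% higher, and the shares of this list lay near these. In coding exons Lin52 lost its call (0.52, limma adjusted p = 0.398), while the other called genes kept theirs. Rbbp4, not called over the whole gene, was lower there (-0.68, limma adjusted p = 0.00116).

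DNA replication genes, which act in the S phase before mitosis, fell in 45 of 49 cases, with 4 not called (Prim2, Gins4, Rfc5 and Pola1). Their median log2 fold change was -1.30 and 38.9% remained, against -2.50 and 15% for the mitosis genes. Of the 7 CDK inhibitors, the brakes of the cell cycle, 4 rose. Cdkn2a, which encodes p16 and p19Arf, had 0.0656, 0.224 and 0.0583 RPKM at PND2 and 0.982, 0.860 and 3.04 RPKM at 4 months (log2 fold change 2.86, limma adjusted p = 0.00658). Cdkn2b rose by 1.70 on the log2 scale, Cdkn1a by 1.28 and Cdkn1b by 0.42. Cdkn1c, an inhibitor of embryonic and newborn tissues, fell (log2 fold change -1.41, limma adjusted p = 0.000181), and Cdkn2c and Cdkn2d were not called.

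**Figure D5:**
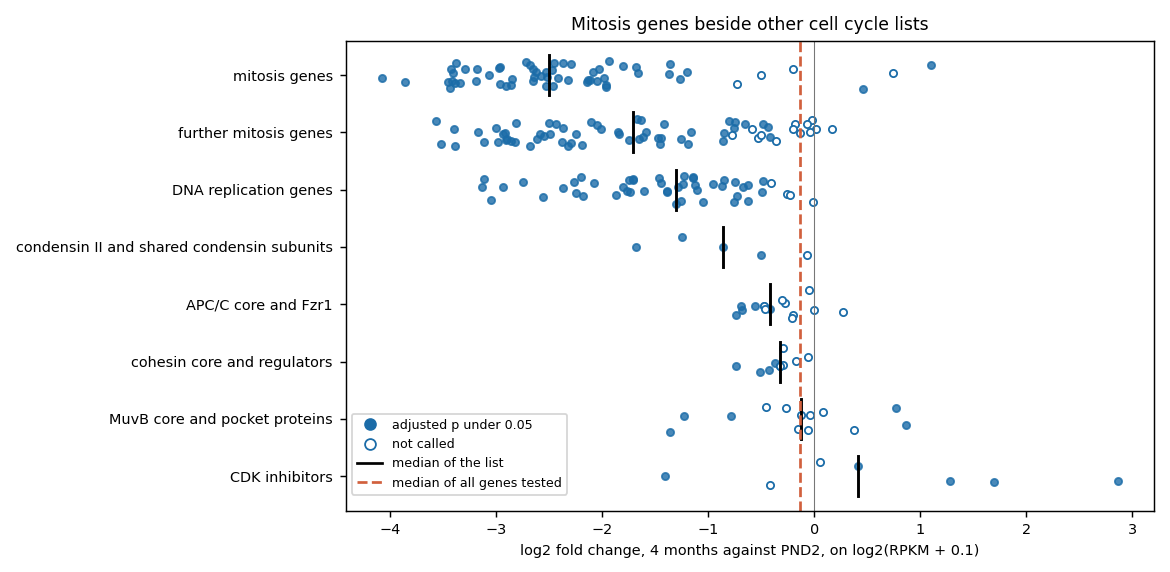
Log2 fold change, 4 months against PND2, of each tested gene of the 60 mitosis genes and of 7 other cell cycle lists, filled where the limma adjusted p is under 0.05, with a black bar at the median of each list and a dashed line at the median of all genes tested (-0.14). The medians run from -2.50 for the mitosis genes over -1.71 and -1.30 for further mitosis and DNA replication genes to values above 0 for the CDK inhibitors.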

How the data were processed

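RNA-seq libraries from pooled aortic valves of C57BL/6J mice, 3 at PND2 and 3 at 4 months, were grouped by their labels. The kit keeps strand, and whether the counting used it is not stated in the sources used here. The authors deposited RPKM per gene and per exon, made from quality-trimmed reads by TopHat2 2.1.0 alignment (mm10) and easyRNASeq counting over Ensembl models. Their notes also name R 3.2.2. Their floor on low values is not applied in these files.

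Whole reads were recovered from RPKM, exonic length and library total (100% of 169855 gene values above 0 came within 0.01 reads of a whole number). Where 3 libraries reached 0.1 RPKM, a gene was tested with limma 3.58.1 (R 4.3.3, with data.table at 1.17.8) on log2(RPKM + 0.1), with a trend in eBayes, 2-sided, and Benjamini-Hochberg adjustment over all 25903 genes. Nothing in the labels says more of the replicates than that they are biological, so p-values measure the spread between pools. For a single value, exact permutation of 3 against 3 libraries gives no p below 0.1. The fit was tested on simulated data, where false calls made up more than their nominal share. All of them were at genes with fewer reads in sum than any of the 60 genes. The share of false calls in the real libraries was not tested. Coding exons are deposited exons whose ends equal a GENCODE coding segment and that overlap no exon of another gene, each used once. Their values add the reads of such exons, so a read that spans a junction can count in both.

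The 60 genes, the lists, the motifs and the cell type markers were chosen with earlier results of these data known. Values per library are given, in each role, for the gene highest at PND2, the one that fell most and the one that fell least or rose, and for genes not called or whose fold moved by over 1.5 times without shared exons. Genes of other lists are named when not called or against the direction of their list, up to 5 a list, and others (Esco2, Smc2, Smc4 and the called genes of the MuvB and CDK inhibitor lists) were chosen after their values were seen. Promoters are from RefSeq. The following were tried instead: adding 1 or 0.01 before the log, keeping all genes, a minimum of 1 RPKM, eBayes with no trend, an unequal-variance test gene by gene (the kind of test the study ran, but here with the pseudocount and filter above and not with its read floor and read minimum), median and quantile scaling, a replicate block, a floor of 10 reads, voom on the recovered reads, protein-coding genes only, shared exons left out, the ratio of medians, and each library left out. Coding exons were added after seeing the data. Tables and plots were made with matplotlib 3.10.9, scipy 1.17.1, pandas 2.3.3 and numpy 2.4.6 under Python 3.11.15.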

Additional observations from a re-analysis of the deposited data

How the results depend on the processing

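Of 1197 values of single mitosis genes under another setting, 1151 kept their direction and their side of the threshold or moved by less than the spread, 34 lost a call, 8 gained one, 4 moved by more than the spread and 0 changed direction. The median log2 fold change of the 60 genes, -2.50, was -1.62 with a pseudocount of 1 and -2.98 in coding exons clear of other genes (added after seeing the data), and ran from -2.76 to -2.38 with each library left out. The count of genes called lower, 54, ran from 52 to 55 except with the per-gene unequal-variance test, which called 36. That test also called 29 of the 68 further mitosis genes lower in place of 55, and 1942 genes lower over all genes in place of 5463. It pools no spread over genes. Without 1 library the counts were 53 to 55 of the 60 genes, 48 to 53 of the further mitosis genes, and the median level that remained was 12.8 to 17.0%. Bub1 and Foxm1 were among the genes that the per-gene test left uncalled (adjusted p 0.0517 and 0.0525), and Nusap1 had 0.145 there and 0.0778 with a floor of 10 reads. Deviations from the age mean in same-numbered libraries had correlations of 0.0439, -0.0608 and -0.160 across genes. Those of differently numbered libraries ran from -0.176 to 0.233. With 3 libraries an age, these values cannot decide whether the numbers pair libraries. A replicate block gave 55 of the 60 genes lower, 54 with a fold over 2, 49 further mitosis genes and a median of -2.50. Under it Anln was called higher (0.0442), Cenpa lower (0.0381) and Cdc25b was not called (0.0701). Voom also called Anln (0.0482) and Cenpa (0.0279). At 4 months 7 of the 60 genes had a library with under 20 reads, which limits their fold changes.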
